A study of Caenorhabditis elegans with 6 samples.

Results

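The 3 genes described here, atfs-1, jmjd-3.1 and hlh-30, encode nuclear regulators that act in responses to mitochondrial and cellular stress in Caenorhabditis elegans. They were found by their names in the deposited table, where each had 1 row among 5792 genes in all. Polyadenylated RNA of whole L4 larvae, the last larval stage, was compared between 3 WT and 3 TGQ samples, all raised at 20 °C on OP50 bacteria. WT carried the strain name SJ4100, known as a strain with a GFP reporter under the hsp-6 promoter. The other strain is labelled only TGQ, and neither its derivation nor its alleles are stated in the labels. By its title, the series is about inherited gains of mitochondrial DNA, aging and the mitochondrial UPR, the unfolded protein response of mitochondria. The labels do not tie replicates to separate cultures. The p-values therefore reflect only the differences among these samples, possibly technical ones.

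ATFS-1 is a bZIP transcription factor with both a mitochondrial targeting signal and a nuclear localization signal. It is imported into healthy mitochondria and degraded there, and when import falters it enters the nucleus and switches on mitochondrial chaperone genes such as hsp-6, so that its activity is controlled largely by where the protein is. JMJD-3.1 is a JmjC demethylase that removes the repressive methyl marks of histone H3 lysine 27, and with the related demethylase JMJD-1.2 it is known to act in the mitochondrial UPR and in the long life of worms with a weakened respiratory chain. HLH-30, a basic helix-loop-helix factor and the worm counterpart of mammalian TFEB, is best known for turning on autophagy and lysosomal genes under starvation and other stresses. mRNA levels, as measured here, do not show where these proteins were or how active they were.

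All 3 regulator mRNAs were higher in TGQ than in WT, jmjd-3.1 by more than the others. The group means of the deposited expression value stood 1.31 times as high in TGQ for atfs-1, 1.4 times for hlh-30 and 2.27 times for jmjd-3.1. Each of the 3 was at 1 or more in all 6 samples and so passed the filter on low values. For every one of them the lowest TGQ sample lay above the highest WT sample. Of the 5540 genes tested, 44% had every TGQ sample above every WT sample, and 45.6% were called higher (limma, adjusted p under 0.05). The table holds only genes that passed the authors' own test of TGQ against WT, so a call of a listed gene is common and is not independent evidence. The authors' adjusted p-values imply about 16747 tests, so most genes they tested had no row. Shares among genes with a row therefore do not carry over to whole lists. In RNA of whole animals, a change in the number of cells of a type cannot be told apart from a change in RNA per cell.

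**Figure D1:**
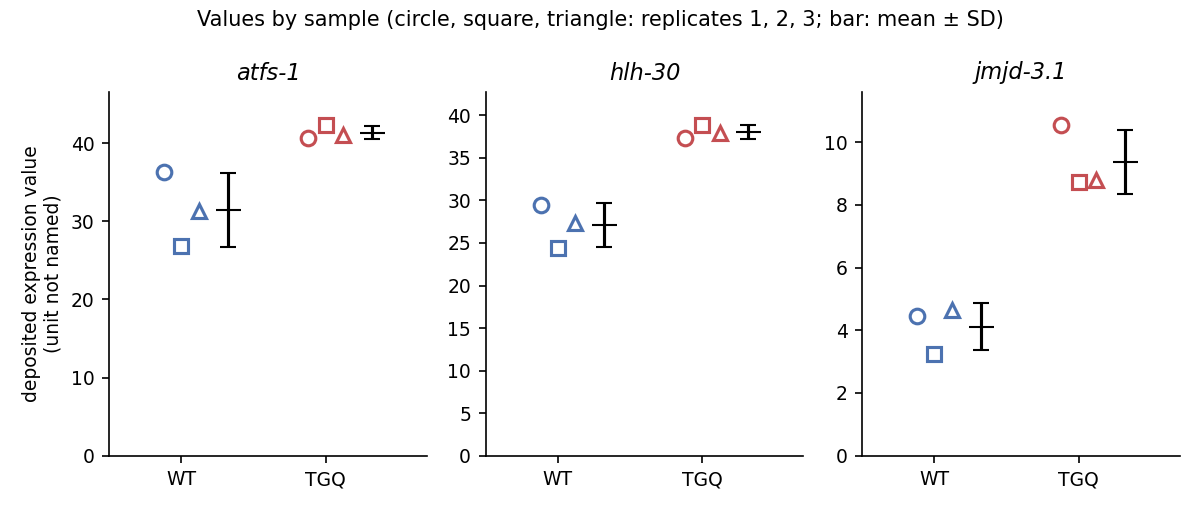
Deposited expression value (vertical axis, from 0, unit not named in the table) of atfs-1, hlh-30 and jmjd-3.1 in each of the 3 WT and 3 TGQ samples, with the mean and SD of each group beside the points. The TGQ samples lie above all WT samples for each gene, by the widest margin in proportion for jmjd-3.1.

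The atfs-1 values were 36.3, 26.8 and 31.4 in WT replicates 1, 2 and 3, and 40.7, 42.3 and 41.1 in TGQ replicates 1, 2 and 3. The WT samples were spread out while the TGQ samples were close together, and the groups did not overlap, though the lowest TGQ value was only 1.12 times the highest WT value. The means were 31.5 ± 4.75 (SD, n = 3) in WT and 41.4 ± 0.858 (SD, n = 3) in TGQ. The log2 change, here always the difference of the group means of log2(value + 1), was 0.39 (SE 0.13, 95% interval 0.11 to 0.68, adjusted p = 0.0162, limma). This rise was among the smallest that were called: 3.24% of the 2527 genes called higher had a smaller one. It was lost as a call without TGQ replicate 2 (log2 change 0.38, adjusted p = 0.056) and with the scaling of the authors' own test (0.26, adjusted p = 0.0689), and over all 14 alternatives the adjusted p ran from 0.000989 to 0.0689. By the authors' deposited table the log2 fold change of atfs-1 was 0.29 with an adjusted p of 0.0289, at rank 5163 of 5792 by that p.

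For jmjd-3.1 the values were 4.46, 3.26 and 4.64 in WT replicates 1, 2 and 3, and 10.6, 8.74 and 8.8 in TGQ replicates 1, 2 and 3. The groups stood far apart, with the lowest TGQ sample at 1.88 times the highest WT sample. The means were 4.12 ± 0.75 (SD, n = 3) in WT and 9.36 ± 1.03 (SD, n = 3) in TGQ. Its log2 change was 1.02 (SE 0.15, 95% interval 0.68 to 1.36, adjusted p = 0.000343, limma), larger than that of 86.9% of the genes called higher. Because 1 was added to low values, this understates the change, and the log2 ratio of the group means was 1.18. In the authors' deposited table jmjd-3.1 had a log2 fold change of 1.06 with an adjusted p of 5.86e-12, at rank 699.

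The hlh-30 values were 29.5, 24.4 and 27.4 in WT replicates 1, 2 and 3, and 37.3, 38.9 and 37.9 in TGQ replicates 1, 2 and 3. The TGQ samples again clustered tightly and above all WT samples, the lowest at 1.27 times the highest WT value. The means were 27.1 ± 2.56 (SD, n = 3) in WT and 38 ± 0.781 (SD, n = 3) in TGQ. The log2 change was 0.48 (SE 0.11, 95% interval 0.22 to 0.73, adjusted p = 0.00376, limma), larger than that of 16.9% of the genes called higher. By the authors' deposited table hlh-30 had a log2 fold change of 0.36, with an adjusted p of 0.00156 at rank 3186.

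The 3 genes shared a pattern within groups. WT replicate 2 had the lowest WT value of all 3, and it was also the lowest WT sample for 56.6% of the 5540 genes tested. WT replicate 1 was the highest WT sample for atfs-1 and hlh-30, as for 68.5% of genes tested, and WT replicate 3 was the highest for jmjd-3.1. All 3 varied more in WT than in TGQ: the coefficient of variation was 15.1% against 2.08% for atfs-1, 9.44% against 2.05% for hlh-30 and 18.2% against 11% for jmjd-3.1. Over all genes tested, 66% had a larger SD of log2(value + 1) in WT, with a median SD of 0.18 in WT and 0.12 in TGQ. Without WT replicate 2 the log2 change of atfs-1 was 0.29, that of hlh-30 0.41 and that of jmjd-3.1 0.9, and all 3 were still called.

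The change of jmjd-3.1 was larger than those of the other 2 regulators in these samples. Its log2(value + 1) minus that of atfs-1 lay between -2.77 and -2.52 in WT and between -2.15 and -1.85 in TGQ, so the difference of the log2 changes was 0.63 (SE 0.12). Against hlh-30 the difference of the log2 changes was 0.55 (SE 0.12), again with no overlap of the groups. Between hlh-30 and atfs-1 it was 0.09 (SE 0.05), with WT samples from -0.29 to -0.13 and TGQ samples from -0.12 to -0.11. Each of the 3 pairs had p = 0.1 by an exact two-sided permutation test over samples, also after adjustment over the 3 pairs, and 0.1 is the smallest p that 3 against 3 samples allow.

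**Figure D2:**
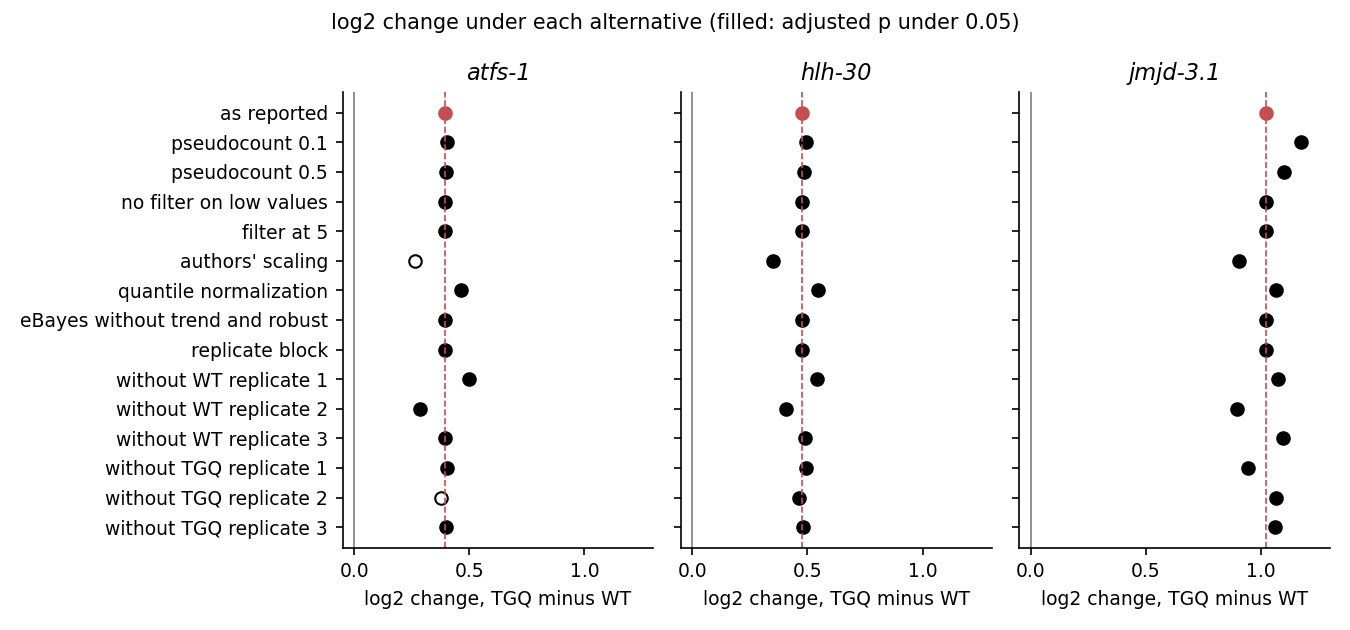
log2 change of atfs-1, hlh-30 and jmjd-3.1 (horizontal axis, TGQ minus WT) as reported, in red, and under 14 alternatives, in black, with filled points for an adjusted p under 0.05. The points of jmjd-3.1 lie between 0.9 and 1.18 and those of hlh-30 between 0.35 and 0.54, all filled, while atfs-1 lies between 0.26 and 0.5 with 2 open points.

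The size of each change depends on how the samples were scaled. Over all genes tested the median log2 change was -0.22, compared with -0.35 under the authors' scaling and -0.1 under quantile normalization. Relative to that median, atfs-1 was higher by 0.61, 0.61 and 0.57 under the 3 scalings. In the same way hlh-30 was higher by 0.7, 0.7 and 0.65, and jmjd-3.1 by 1.25, 1.25 and 1.17. The authors' scaling multiplies all TGQ values by the same factor, so it moves a gene and the median almost alike. The near match between the deposited values and the authors' scaling follows from that and is no test. The median was also taken over genes selected on these samples.

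Markers of cell types also differed between the groups, in both directions. All 18 oocyte and eggshell markers were called lower, against 44.6% of all genes tested, with a summed value of 1643 to 2218 in WT and 447 to 628 in TGQ. Of these, cav-1 was below 1 in every TGQ sample and passed the filter only through WT. Of the 21 tested sperm markers, 20 were called lower, against the same 44.6%. The remaining sperm marker, fog-3, was called higher (log2 change 0.98). The summed value of the 21 was 5189 to 6311 in WT and 1743 to 2198 in TGQ. Each of the 10 neuron and muscle markers in the table was called higher, against 45.6% of all genes tested. With the authors' scaling 8 were, against 41.4% of all genes, and the calls of aex-3 and unc-89 were lost. These calls were also lost without any of several single samples. The groups of unc-22 and unc-89 overlapped. The rest of the 31 listed had no row in the table. The median log2 change of the 10, 0.65, lay above those of atfs-1 and hlh-30 and below that of jmjd-3.1. Intestine markers were split, 2 higher and 4 lower, and so were hypodermis markers, 4 higher and 2 lower. Over all genes tested the shares were 45.6% higher and 44.6% lower. The lower intestine markers included the yolk protein genes vit-2 and vit-6. The largest fall of any tested marker was that of col-19, a collagen gene among the hypodermis markers (log2 change -3.01). It was at 895, 741 and 680 in WT and 131, 70.2 and 91.1 in TGQ. After quantile normalization the intestine markers were 2 higher and 2 lower and the hypodermis markers 4 higher and 1 lower. Of all genes tested, 41.7% were then called lower. The part of these shifts in the rise of the 3 regulators was not tested.

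In the WBcel235 annotation (the labels name no build), atfs-1 lies on the forward strand of chromosome V at 14193663 to 14197700, with 7 annotated transcripts of 3 to 9 exons. Its nearest protein-coding neighbours, ints-2 and T16A9.3, were not in the table. The jmjd-3.1 gene lies on the forward strand of chromosome X at 8571047 to 8575451, with 4 transcripts of 9 or 10 exons. Its nearest neighbour at lower coordinates is utx-1, another H3 lysine 27 demethylase gene, which ends 7808 bases away and was also higher in TGQ. The hlh-30 gene lies on the reverse strand of chromosome IV at 4014793 to 4034951, with 13 transcripts of 8 to 11 exons. It holds 2 annotated noncoding RNA genes, F35F11.4 on its own strand and W02C12.4 on the other, neither of them in the table. Its neighbour clec-78, of the C-type lectin family, lies 557 bases away on the opposite strand and was in the table at 0.34 to 0.48 in WT and 0.83 to 1.45 in TGQ, too low to pass the filter. One value was deposited per gene, so transcripts of a gene cannot be told apart, and it is not given whether reads were counted by strand.

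Other regulators of the mitochondrial UPR in the table were higher as well. Of 28 listed regulators, 27 were annotated under the listed name, 6 were in the table and tested, and all 6 were called higher, against 45.6% of all genes tested. With the authors' scaling, which called 41.4% of all genes higher, 4 of the 6 were called, those of atfs-1 and nhr-45 being lost. Their median log2 change was 0.47, against -0.22 for all genes tested. The counts and the median include the 3 regulators themselves, and the only other genes tested were nhr-45, bar-1 and egl-20. The nuclear hormone receptor gene nhr-45 was at 9.56, 7.58 and 9.06 in WT and 11.2, 11.8 and 12.8 in TGQ (log2 change 0.41, adjusted p = 0.0148, limma), and its call was also lost without TGQ replicate 3 (adjusted p = 0.0571). The beta-catenin gene bar-1 was at 4.78, 4.06 and 5.35 in WT and 6.59, 7.25 and 6.67 in TGQ (log2 change 0.46, adjusted p = 0.00999, limma). The Wnt ligand gene egl-20 was at 3.41, 2.33 and 3.08 in WT and 6.11, 3.92 and 5.65 in TGQ, without overlap of the groups (log2 change 0.65, adjusted p = 0.00704, limma). The other 21 annotated genes of the list, among them dve-1, ubl-5, haf-1, lin-65, met-2 and jmjd-1.2, had no row in the table and are not analysed here. The 6 with a row therefore do not stand for the whole list.

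Genes of mitochondrial chaperones and proteases, several of which ATFS-1 is known to switch on, were higher as well. Of 16 annotated genes of mitochondrial chaperones, proteases and import, 10 were in the table and all 10 were called higher, against 45.6% of genes tested. Their log2 changes ran from 0.42 to 0.96 with a median of 0.51, and that of atfs-1 itself was 0.39. The largest was that of spg-7, which encodes the mitochondrial protease paraplegin. It was at 49, 25.4 and 34.8 in WT and 71.1, 71.7 and 64.8 in TGQ, so WT replicate 2 was the lowest WT sample here too.

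Among the 4 tested genes of histone demethylation and H3 lysine 27 methylation, jmjd-3.1 had the largest rise. Of 15 JmjC demethylase and H3 lysine 27 methylation genes, 4 were in the table, of which 3 were called higher and 1 lower, against 45.6% and 44.6% of genes tested. The related demethylase gene utx-1 was low, at 1.59, 1.09 and 1.6 in WT and 3.21, 3.33 and 2.79 in TGQ. Its groups did not overlap (log2 change 0.77, SE 0.14, adjusted p = 0.000972, limma). By the ratio of the group means, where no 1 is added, utx-1 rose nearly as much as jmjd-3.1, 2.18 against 2.27 times. On the other side, mes-3, which encodes a subunit of the Polycomb complex that places the methyl marks, was also called higher, with 13.7, 9.76 and 11 in WT and 18.1, 16.6 and 16.4 in TGQ (log2 change 0.54). The gene called lower, jmjd-1.1, another JmjC family member, was at 4.63, 2.79 and 3.55 in WT and 2.38, 2 and 1.33 in TGQ (log2 change -0.68, adjusted p = 0.00797, limma). Reads shared between jmjd-3.1 and its paralogs were not examined. The genes mes-2, mes-6, jmjd-3.2 and jmjd-3.3 had no row in the table.

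In the transcription factor families of atfs-1 and hlh-30, few genes were in the table, and the counts below include both regulators themselves. Of 28 annotated bZIP genes 4 were tested. Each of the 4 was called higher, against 45.6% of all genes tested, and 3 were when the authors' scaling was used, against 41.4% of all genes. Their median log2 change was 0.72, and atfs-1 had the smallest of the 4. The largest was that of atf-8, at 8.31, 8.62 and 9 in WT and 20.5, 17.1 and 18.5 in TGQ (log2 change 1.03, adjusted p = 0.000111, limma). Of 41 annotated bHLH genes 7 were tested, of which 6 were called higher and 0 lower, against the same 45.6% of all genes called higher and 44.6% called lower. The median log2 change was 0.5, and the counts were the same with the authors' scaling. The largest rise on the log2(value + 1) scale was that of lin-22, a gene of the Hairy-related family, from 1.1, 0.87 and 1.34 in WT to 3.09, 3.93 and 4.1 in TGQ (log2 change 1.16), a mean 3.36 times as high. By the ratio of the means hlh-10 rose more, to 4.73 times its WT mean, from values of 0.07 to 0.37 in WT to 1.05 to 1.21 in TGQ (log2 change 0.8, adjusted p = 0.000575, limma). Both hlh-10 and cky-1, another of the 6, were below 1 in every WT sample and passed the filter only through TGQ. Their direction was thus fixed by the filter. The member not called, mdl-1, overlapped between the groups (log2 change -0.4, adjusted p = 0.128, limma). It was called lower in the fit with the replicate number as a block (adjusted p = 0.00798, limma) and without TGQ replicate 1 (log2 change -0.68, adjusted p = 0.00668, limma).

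**Figure D3:**
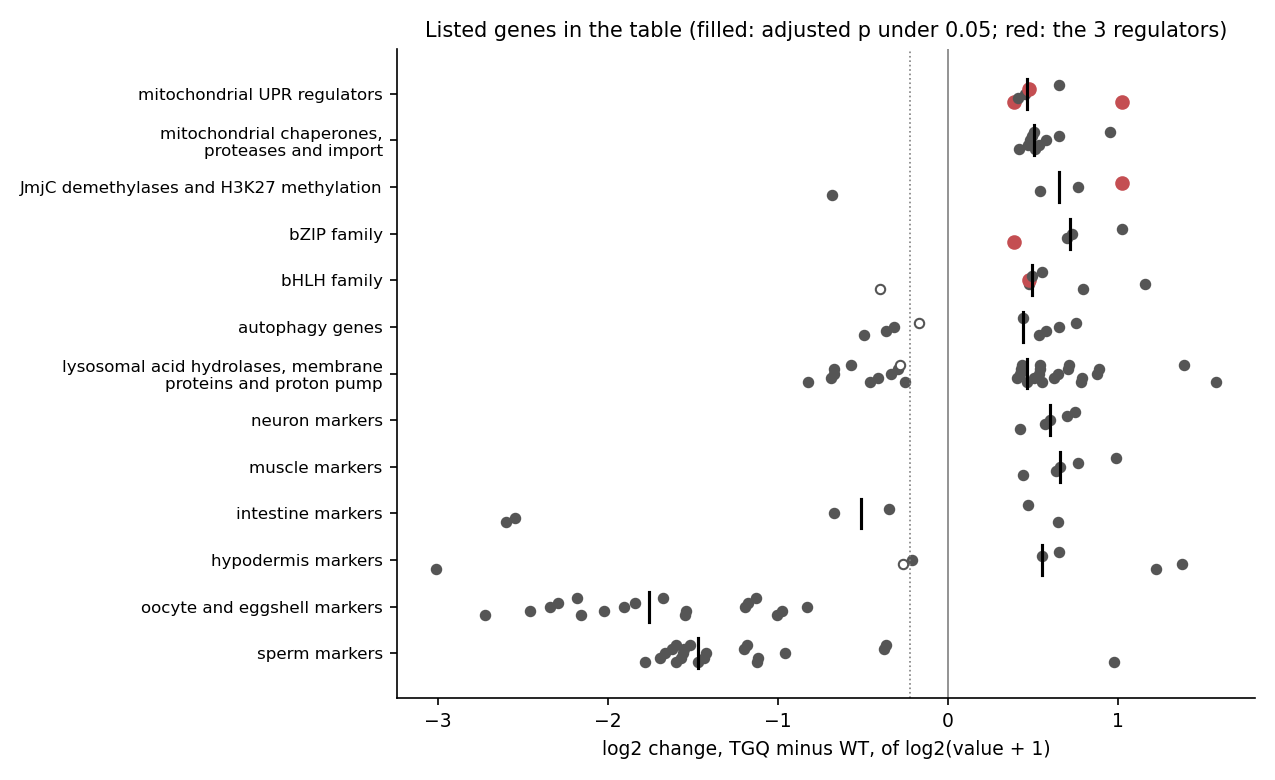
log2 change (horizontal axis, TGQ minus WT) of the genes of each list that were in the table and tested, with filled points for an adjusted p under 0.05, black bars for list medians and a dotted line at -0.22, the median of all genes tested. The 3 regulators, in red, lie from 0.39 to 1.02, among rises of chaperone, neuron and muscle genes, while oocyte and sperm markers lie mostly on the left.

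Of 32 annotated autophagy genes, a process that HLH-30 is known to promote, 9 were in the table, 5 called higher and 3 lower. Over all genes tested 45.6% were called higher and 44.6% lower, so calls in both directions were common, and counts of 9 genes near those shares say nothing particular about autophagy genes. With the authors' scaling the counts were 4 and 4. The largest rise was that of epg-2, an autophagy adaptor gene, from 4.68, 3.14 and 3.86 in WT to 7.41, 7.7 and 6.5 in TGQ (log2 change 0.75). The largest fall was that of lgg-2, one of the genes for the Atg8 proteins that coat autophagosomes, from 54, 40.7 and 41.7 to 36.1, 28.6 and 31 (log2 change -0.49). The other calls lower were those of lgg-1 and lgg-3, named here after their values were seen, with log2 changes of -0.31 and -0.37. Both calls were lost after quantile normalization (0.054 and -0.29), under which 1 gene of the list and 41.7% of all genes tested were called lower. The call of lgg-1 was also lost without TGQ replicate 2, and that of lgg-3 without WT replicate 2 or TGQ replicate 3. The calls higher numbered 3 without WT replicate 2 or without TGQ replicate 3.

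Of 68 annotated lysosomal genes 31 were tested, 20 of them called higher and 10 lower, against 45.6% and 44.6% of all genes tested, with a median log2 change of 0.46. The lower calls numbered 6 after quantile normalization, and also 6 without WT replicate 3, TGQ replicate 2 or TGQ replicate 3. Split by name, after the values were seen, 10 of 11 tested subunit genes of the V-ATPase, the pump that acidifies the lysosome, were called higher and 1, vha-18, lower, against the same 45.6% and 44.6%. The call of vha-18 was lost without any of 4 single samples (log2 change -0.25 without WT replicate 1). The summed value of the 11 genes was 1537 to 1839 in WT and 2376 to 2465 in TGQ. In the same split, 2 of 6 cathepsin and aspartyl protease genes were called higher and 4 lower. Of 9 other lysosomal genes, 7 were called higher and 1 lower, beside the same 45.6% and 44.6%. After quantile normalization 0 of the protease genes were called lower, against 41.7% of all genes tested. Of 5 tested lysosomal lipase genes, some of which HLH-30 is known to induce in fasted worms, 4 were called lower and 1 higher, again beside 44.6% and 45.6% of all genes tested. The lower ones were lipl-1, lipl-2, lipl-3 and lipl-5. Of these, lipl-1 was at 1.48 to 1.86 in WT and 0.47 to 0.86 in TGQ. It passed the filter only through WT, which fixed its direction. The groups of lipl-2 overlapped, and its call was lost without single samples (adjusted p up to 0.149, limma). That call was also lost with pseudocounts of 0.1 and 0.5. With a filter at 5, lipl-1, lipl-2 and lipl-3 were not tested. The largest fall in the list was that of lipl-3, from 2.21, 1.54 and 1.84 in WT to 1.11, 0.38 and 0.43 in TGQ (log2 change -0.83). The largest rise was that of lipl-6, from 1.69, 1.95 and 1.92 to 7.39, 8.29 and 6.9 (log2 change 1.58). Of 21 partners of HLH-30 and nutrient signalling genes 3 were tested. The AMP kinase gene aak-2 was called higher, at 20.5, 14.9 and 18.2 in WT and 26.3, 27.1 and 25.8 in TGQ. The 14-3-3 gene par-5 had a log2 change of -0.17 (adjusted p = 0.049, limma), a call that was lost without any single sample other than WT replicate 1 and turned to a rise of 0.31 after quantile normalization.

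The genes whose values ran closest to each regulator over the 6 samples were of varied kinds. Likeness was the root mean square difference of log2(value + 1) after each gene's mean was subtracted. The nearest to atfs-1 were mrpl-38, a mitochondrial ribosomal protein gene, at 0.016, ech-2, an enoyl-CoA hydratase gene, at 0.0282, and eif-3.C, a translation initiation factor gene, at 0.0285. The median over all genes tested was 0.381 for atfs-1, 0.402 for hlh-30 and 0.645 for jmjd-3.1. The nearest to hlh-30 were eri-12 at 0.0162, bath-38 at 0.0183 and mrpl-4, another mitochondrial ribosomal protein gene, at 0.0215. The nearest to jmjd-3.1 were the cytochrome P450 gene cyp-23A1 at 0.0393, the short-chain dehydrogenase gene dhs-8 at 0.0564 and gei-13, which encodes a BED zinc finger protein, at 0.0567. In WT, cyp-23A1 was at only 0.95 to 1.37 and dhs-8 at 0.81 to 1.26, so their likeness depends on the added 1. With a pseudocount of 0.1 their log2 changes were 1.43 and 1.5, against 1.18 for jmjd-3.1. Between the regulators, hlh-30 stood at rank 116 of 5539 genes by likeness to atfs-1, with a difference of 0.0637, while jmjd-3.1 stood at rank 2395, with 0.338.

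**Figure D4:**
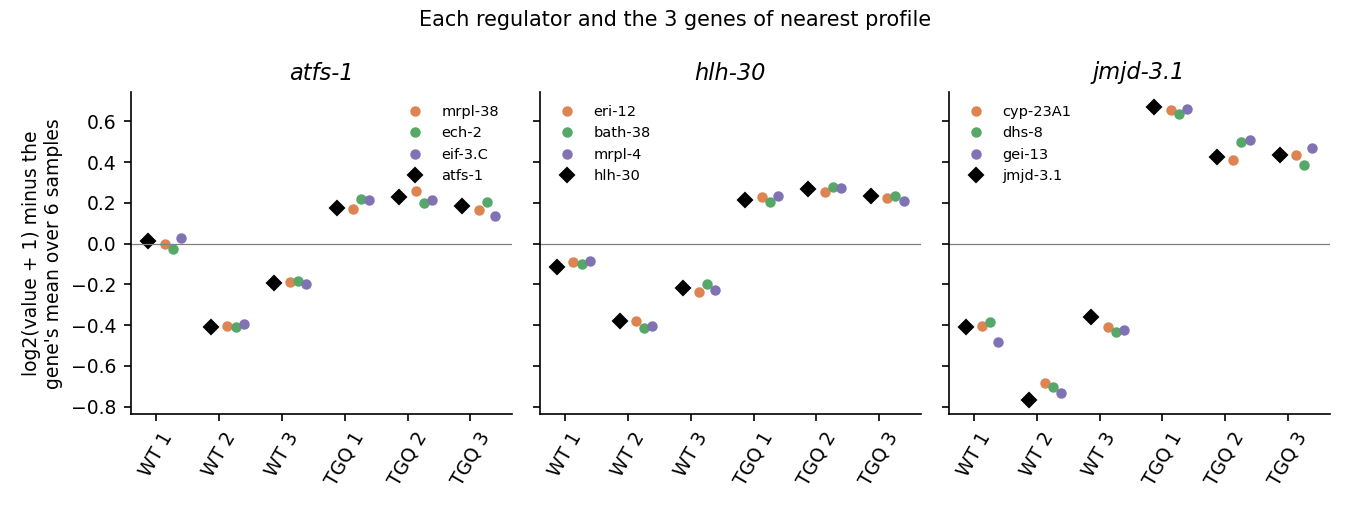
log2(value + 1) minus the gene's own mean over the 6 samples (vertical axis) for each regulator, black diamonds, and the 3 genes nearest to it, coloured circles, in each sample. The neighbours were chosen by likeness over these same 6 samples. By that choice they follow the low WT replicate 2 and the step up to TGQ, which for jmjd-3.1 has a log2 size of 1.02.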

How the data were processed

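Whole L4 animals were measured by polyadenylated RNA sequencing, and samples were grouped by their titles. Per the submitters' processing notes, the tools included TopHat2, TopHat and RSEM, with no version or role stated. Neither the genome build nor the authors' test is stated. The deposited table gives an expression signal per gene and sample, with no unit given in the header, and not a count, per the file headers, with the authors' group means, a ratio of TGQ to WT and its log2. The authors' deposited p-values come raw and adjusted, and the adjusted ones reach at most 0.0499, so the genes were selected on these samples. Summed over the table, the values came to 327792 to 349508 in WT samples and 282762 to 293887 in TGQ samples. Depth is unknown, so no counting interval is given.

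Genes reaching a value of 1 in 3 or more samples, 5540 in number, entered a linear model of log2(value + 1) on group (limma 3.58.1, R 4.3.3; eBayes, trend and robust). The Benjamini-Hochberg adjustment ran over all 5540, and a call is an adjusted p under 0.05. The design had provided for limma where values were not counts. Differences between members were compared with SciPy 1.17.1. The fit was also run on simulated independent genes, few of which were changed. Most genes of the real table were called, so that run does not bear on the calls given here. The authors' scaling was taken from the median difference of -0.131 between their log2 fold change and the log2 ratio of their means in the 3716 genes whose group means were both 5 or more. Other alternatives were pseudocounts of 0.1 and 0.5, no filter or a filter at 5, quantile normalization, plain eBayes, a replicate block and leaving out each sample.

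The members and the gene lists were chosen with earlier results of these data known. Genes named from a list are the tested regulators of the mitochondrial UPR and, of other lists, the called genes with the largest rise and fall. Others named are the 3 nearest genes to each member by likeness, neighbours in the genome, and genes said to be named after their values were seen. The genes mes-3, mdl-1, vha-18, vit-2, vit-6 and those named as not analysed were also chosen after the table was seen. So were hlh-10, cky-1, cav-1, col-19, fog-3, aex-3, unc-22 and unc-89. Of the listed names, 10 symbols had no match in the annotation.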

Additional observations from a re-analysis of the deposited data

How the results depend on the processing

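Of 42 alternative values of the 3 regulators, 40 kept both direction and side of the threshold, and the other 2 were the lost calls of atfs-1. These had a log2 change of 0.26 with the authors' scaling, and leaving out single samples gave 0.29 to 0.50. Rises of jmjd-3.1 and hlh-30 were called under all 14 alternatives. With a filter at 5, fewer genes were tested: calls numbered 0 lower for JmjC genes, 3 higher for autophagy genes and 3 higher for the bHLH family. After quantile normalization, calls lower numbered 1 for autophagy genes and 6 for lysosomal genes, and HLH-30 partners had 2 higher and 0 lower. The log2 changes of par-5 and lgg-1 then were 0.31 and 0.054. Plain eBayes left 0 HLH-30 partners called lower. The cause was not tested. Leaving out single samples gave 3 to 5 autophagy genes higher, 6 to 11 lysosomal genes lower, 0 to 1 HLH-30 partners lower and 0 to 1 bHLH genes lower.

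Same-numbered samples were not shown to be paired: the deviations from the group means correlated at 0.247, -0.012 and 0.16 across genes for numbers 1, 2 and 3. With a replicate block 2 HLH-30 partners and 1 bHLH gene were called lower, and the 3 regulators were still called. No depth was known, so the precision of low values such as those of jmjd-3.1 and utx-1 could not be set.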
